A study of Homo sapiens with 6 samples.

Results

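Genes of the BCL2 family were read out in SKOV3 cells with silenced KLF5. The 10 genes were chosen by name, for their place in the control of apoptosis, and all 10 were found among the 29185 genes of the deposited RNA-seq table. BCL2, BCL2L1, BCL2L2 and MCL1 are the anti-apoptotic members, BAX and BAK1 the effectors, and BID, BAD, BBC3 and PMAIP1 the BH3-only members. SKOV3 cells are an established line from an ovarian cancer. The sh-KLF5 group (3 libraries) carries a pLKO knockdown vector against KLF5 and is labelled as KLF5 knockdown. The sh-NC group (3 libraries) is the control, whose genotype the labels give as WT. Stable cells were obtained by lentiviral infection and puromycin selection, the sources used here do not say which or how many knockdown sequences the sequenced cells carried, and the labels of the sequenced libraries name no drug. The labels do not say that the libraries of a group came from separate cultures, so the p-values measure only the spread between these libraries.

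Proteins of the BCL2 family decide whether the outer membrane of the mitochondrion stays intact. BAX and BAK1 form the pores that release cytochrome c, the anti-apoptotic members hold them and their activators in check, and the BH3-only proteins either activate the effectors or occupy the anti-apoptotic members. The study followed BAX and BCL2 as proteins in other cells, resistant to the PARP inhibitor olaparib. Those cells were given olaparib, the KLF5 inhibitor ML264 or both. The study also reported more apoptosis under olaparib after KLF5 knockdown, in SKOV3 cells and in olaparib-resistant cells. The RNA-seq data allow the whole set of family transcripts to be compared between sh-KLF5 and sh-NC.

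The deposited values are normalized read counts, meaning that the reads of each gene were scaled by 1 size factor for each library, and the recovered library totals lay between 15852319 and 17543896 reads. KLF5, the silenced gene, had 4371, 4425 and 4494 normalized counts in the control libraries, compared with 1745, 1440 and 1436 after silencing, a log2 fold change of -1.53. The keratin genes KRT7, KRT8 and KRT18, ERBB2, PAX8 and EPCAM were detected in every library. WT1, the other listed marker of an ovarian carcinoma line, was not found by name among the 29185 genes. KRT7, KRT8 and KRT18 were lower in sh-KLF5 (log2 fold changes from -1.17 to -0.64), and the summed level of the 6 markers ranged from 682 to 815 RPKM (reads relative to exon length and library size) in sh-NC and 375 to 487 in sh-KLF5. Of the leukocyte markers, PTPRC had at most 1 read in any library, whereas CD14 had 151 to 238 reads in sh-NC and 189 to 391 in sh-KLF5. The log2 fold change of CD14 was 0.66 (adjusted p = 0.0725 with limma, and past the threshold with edgeR and DESeq2). The summed level of the leukocyte marker list was 4.88 to 7.24 RPKM in sh-NC and 5.95 to 12.6 in sh-KLF5, and that of the endothelial markers CDH5, VWF and PECAM1 0.512 to 0.652 and 0.254 to 0.574. The part of these markers in the results was not tested. The sh-KLF5 library 1 stood further from its group than the other libraries: the chi-square divided by its degrees of freedom was 26.4 against library 2 and 34.3 against library 3, whereas the other pairs lay between 4.66 and 11.6, and the members' values without this library are given beside their results.

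BBC3, BAX and PMAIP1 rose after KLF5 silencing. BBC3, which encodes the BH3-only protein PUMA, stood at 2.65 times its control level (95% interval 1.90 to 3.69), BAX at 1.595 times (1.30 to 1.95) and PMAIP1, which encodes the BH3-only protein NOXA, at 1.49 times (1.196 to 1.86). All 3 are pro-apoptotic. No member fell past the threshold, and none of the 4 anti-apoptotic members passed it in either direction. These comparisons come from limma on log2(normalized count + 1) over 15803 tested genes, and a gene was taken as changed at a Benjamini-Hochberg adjusted p-value under 0.05. With this rule 6.04% of all tested genes were higher in sh-KLF5 and 6.85% were lower, so 3 of 10 members higher and 0 of 10 lower stand beside these shares as a description of a chosen list. With a log2 fold change beyond 1 required as well, BBC3 was the 1 member called higher, against 1.9% of all tested genes, and 0 members were called lower, against 3.37% (5.28% in either direction). The median log2 fold change was 0.32 over the 10 members and 0.00 over all tested genes. The libraries of both groups did not overlap for 8 members, 5 higher and 3 lower, against 15.4% and 15.9% of the tested genes (31.3% in either direction). The RNA came from whole cultures, so more RNA per cell and more cells with the RNA cannot be told apart.

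**Figure D1:**
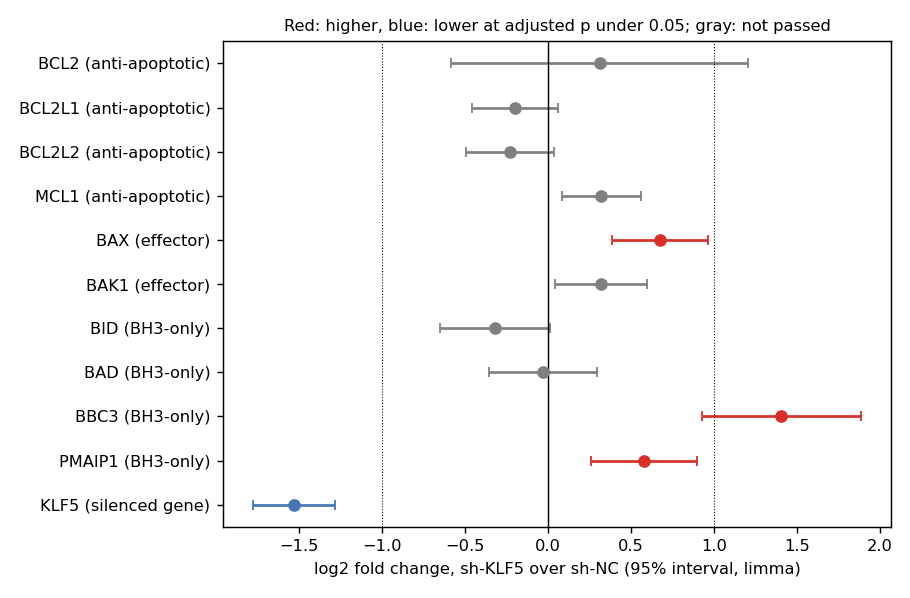
Log2 fold changes of the 10 members and of KLF5, sh-KLF5 over sh-NC (points, with 95% intervals from limma, n = 3 libraries per group; the dotted lines mark log2 fold changes of 1 and -1). BBC3, BAX and PMAIP1 lie to the right of 0 and passed the adjusted threshold, and MCL1 and BAK1 lie to the right of 0 without passing it.

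The promoter sequences of the 3 genes that rose are shown because their transcripts were higher together. The letters are those of RefSeq on GRCh38.p14, 5′ to 3′ on the strand of the gene, from the base 250 positions before the RefSeq start up to the last base before the gene's start in GENCODE release 29. The capitals mark matches on either strand to 4 motifs. The E-box is CACGTG. The CCAAT box is named by its letters. The GC box is GGGCGG. The CACCC-type pattern searched, of the kind bound by Krüppel-like and SP factors, is CCNCNCCC, which can overlap the GC box.
BAX, chr19:48954625-48954814, + strand: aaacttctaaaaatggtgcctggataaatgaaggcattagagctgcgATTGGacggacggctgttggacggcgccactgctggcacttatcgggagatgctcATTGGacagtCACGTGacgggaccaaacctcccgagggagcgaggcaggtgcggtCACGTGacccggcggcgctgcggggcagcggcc
BBC3, chr19:47232767-47232917, - strand: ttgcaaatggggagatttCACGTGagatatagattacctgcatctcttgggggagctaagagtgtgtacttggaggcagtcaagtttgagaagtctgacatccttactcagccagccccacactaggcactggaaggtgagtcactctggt
PMAIP1, chr18:59899746-59899947, + strand: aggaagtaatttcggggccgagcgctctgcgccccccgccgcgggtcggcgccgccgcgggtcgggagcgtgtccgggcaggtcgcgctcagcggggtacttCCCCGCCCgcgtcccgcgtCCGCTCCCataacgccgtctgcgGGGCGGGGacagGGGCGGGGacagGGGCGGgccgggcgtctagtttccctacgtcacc

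The 3 promoters share no common set of these letters. Over the 250 bases before its RefSeq start, BAX held 4 E-boxes, 2 CCAAT boxes and 1 GC box, and no CACCC-type match. BBC3 held 1 E-box and 1 CCAAT box, and neither a GC box nor a CACCC-type match. PMAIP1 held 4 GC boxes and 4 CACCC-type matches, of which some overlap, and neither an E-box nor a CCAAT box. Among 35116 RefSeq windows of this length, the E-box was present in 6.34%, the CCAAT box in 32.01%, the GC box in 42.6% and the CACCC-type pattern in 53.4%. Of the 10 members, 8 had a window in the table, with 14 windows in all. MCL1 and BCL2L2 were the members without a window. Among the members that did not pass the threshold, the E-box was found in 2 of the 5 windows of BID and in none of those of BAD, BAK1, BCL2 and BCL2L1. The CACCC-type pattern, absent from BAX and BBC3, was present in at least 1 window of each of these members. The CCAAT box was found in BAD and BAK1, and the GC box in BID, BAD and BAK1. A match is a description of the letters and not a binding site.

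The anti-apoptotic genes had unequal levels. MCL1 (ENSG00000143384, chromosome 1, 150574551 to 150579738, - strand) encodes a short-lived protein that binds BAK1 and several BH3-only proteins, NOXA among them. It had 4639, 4363 and 4637 normalized counts in sh-NC (libraries 1, 2 and 3 in order), compared with 6185, 5578 and 5305 in sh-KLF5. Every sh-KLF5 library lay above every sh-NC library. The log2 fold change was 0.32 (95% interval 0.08 to 0.56), with an adjusted p of 0.0714 that missed the threshold. DESeq2 on the recovered reads put MCL1 past it (adjusted p = 0.0353), and over the alternatives with all libraries the adjusted p ran from 0.0353 to 0.0769. Without sh-KLF5 library 1, where MCL1 was highest, the log2 fold change was 0.26 (adjusted p = 0.0573).

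BCL2L1 (ENSG00000171552, chromosome 20, 31664452 to 31723989, - strand), the gene of BCL-XL, had 1140, 1101 and 1311 normalized counts in sh-NC and 922, 1089.7 and 1086 in sh-KLF5. Its sh-KLF5 libraries lay under its sh-NC libraries by a small margin, and the log2 fold change of -0.20 (95% interval -0.46 to 0.06) did not pass. It was -0.12 without sh-KLF5 library 1, the lowest. The gene has a long and a short splice form with opposite effects on apoptosis, which a count per gene does not separate. The antisense gene ABALON covers 43.0% of its exonic bases, and had 36 to 83 reads per library. BCL2L2 (ENSG00000129473, chromosome 14, 23298790 to 23311759, + strand), the gene of BCL-W, had 477, 476 and 463 normalized counts in sh-NC and 387, 433 and 388 in sh-KLF5, a log2 fold change of -0.23 (-0.50 to 0.04) that did not pass. The groups did not overlap, and without sh-KLF5 library 1 the value was -0.20. The read-through gene BCL2L2-PABPN1 shares 19.4% of the exonic bases of BCL2L2 on the same strand and had 9 to 23 reads, so reads on the shared exons cannot be assigned with certainty. PPP1R3E covers 4.92% of the exonic bases of BCL2L2 on the opposite strand and had 156 to 230 reads.

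BCL2 (ENSG00000171791, chromosome 18, 63123346 to 63320128, - strand), the founding member of the family, was close to the limit of detection in SKOV3. It had 16, 11 and 21 reads in sh-NC and 23, 26 and 12 in sh-KLF5. The groups overlapped, and the log2 fold change of 0.31 had an interval from -0.58 to 1.203. At this depth neither a rise of 2.30 times nor a fall to 0.668 of the control level lay outside the interval, so no difference in BCL2 was detectable. Its log2 fold change was 0.18 without sh-KLF5 library 1.

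**Figure D2:**
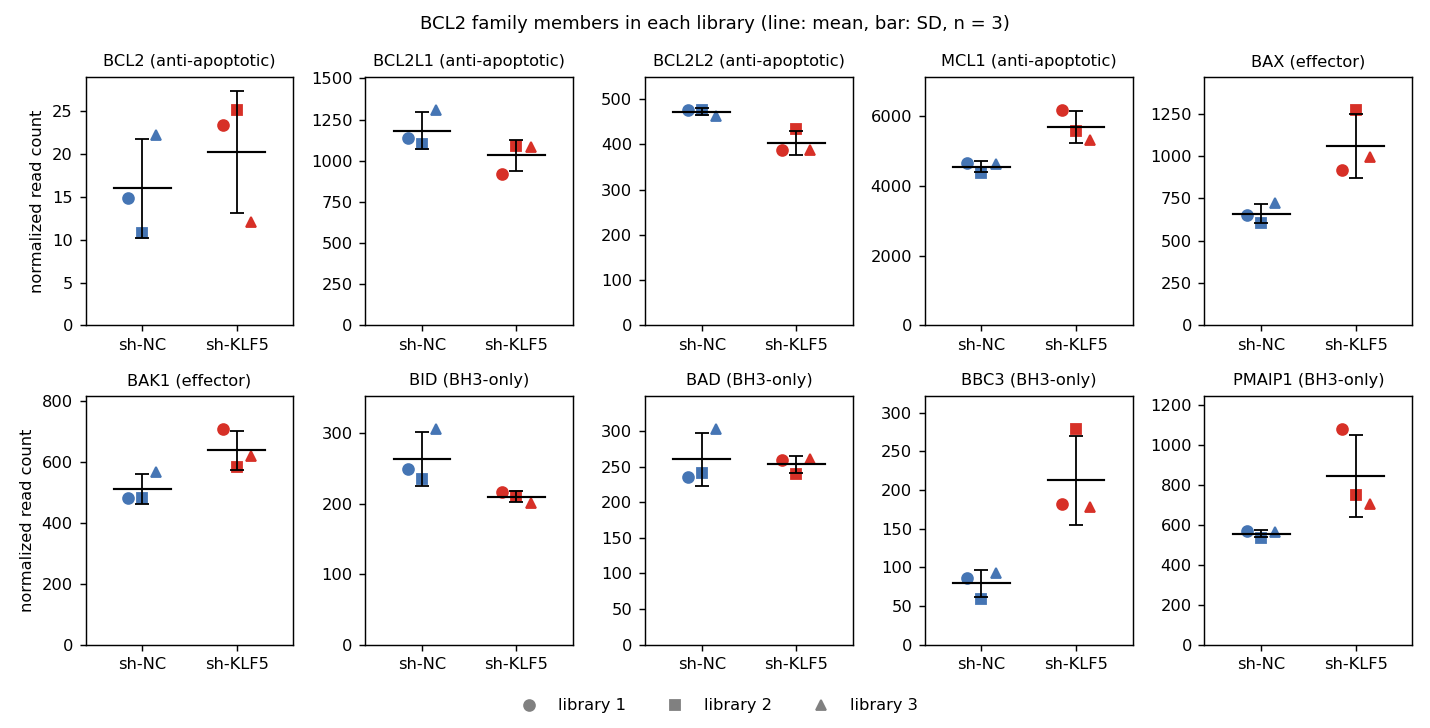
Normalized read counts of the 10 members in each library (vertical axes start at 0; circles, squares and triangles are libraries 1, 2 and 3; line and bar, mean and SD, n = 3). For MCL1, BAX, BAK1, BBC3 and PMAIP1 all sh-KLF5 points lie above all sh-NC points, for BCL2L1, BCL2L2 and BID they lie below, and for BCL2 and BAD the groups overlap.

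The effectors BAX and BAK1 both had higher values in sh-KLF5, and BAX passed the threshold. BAX (ENSG00000087088, chromosome 19, 48954815 to 48961798, + strand) had 653, 606 and 720 normalized counts in sh-NC (libraries 1, 2 and 3 in order), compared with 916, 1274 and 993 in sh-KLF5. The sh-KLF5 library 2 was the highest. The group means of 659.7 ± 57.6 and 1061 ± 188 (SD, n = 3) corresponded to a log2 fold change of 0.67, with a standard error of 0.14 and an adjusted p of 0.00309. It stayed past the threshold with each library left out in turn, with a lowest log2 fold change of 0.53 without sh-KLF5 library 2 and 0.77 without sh-KLF5 library 1. No exonic base of BAX is shared with another gene in GENCODE release 29. BAK1 (ENSG00000030110, chromosome 6, 33572547 to 33580293, - strand) had 481.4, 480.9 and 567 normalized counts in sh-NC and 708, 582 and 620 in sh-KLF5. The groups did not overlap, but the log2 fold change of 0.32 (95% interval 0.04 to 0.60) had an adjusted p of 0.126. Without sh-KLF5 library 1 it was 0.24.

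Among the BH3-only genes, BBC3 and PMAIP1 rose, and BID and BAD did not pass. BBC3 (ENSG00000105327, chromosome 19, 47220822 to 47232766, - strand) had 86.6, 59.1 and 92.3 normalized counts in sh-NC, and 181, 279 and 177 in the sh-KLF5 libraries. Its lowest sh-KLF5 library was well above its highest sh-NC library. The group means were 79.3 ± 17.7 and 213 ± 57.8 (SD, n = 3). The log2 fold change of 1.41, with a standard error of 0.23 and an adjusted p of 0.000433, was the largest of the 10 members. PUMA binds all anti-apoptotic members, and its transcript is known to be induced by DNA damage. Leaving out 1 library moved the log2 fold change between 1.19, without sh-KLF5 library 2, and 1.53, without sh-NC library 3. It was 1.503 without sh-KLF5 library 1. The genes MIR3190 and MIR3191 lie in the same exons and cover 2.52% of the exonic bases.

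PMAIP1 (ENSG00000141682, chromosome 18, 59899948 to 59904306, + strand) had 569, 534 and 567 normalized counts in sh-NC and 1082, 750.0 and 705 in sh-KLF5. The control libraries were close together, and sh-KLF5 library 1 was far above the other 2 libraries of its group. The group means were 557 ± 19.5 and 846 ± 206 (SD, n = 3), and the log2 fold change was 0.58, with a standard error of 0.15 and an adjusted p of 0.0174. Without sh-KLF5 library 1 the log2 fold change was 0.39 (adjusted p = 0.0164), still past the threshold. The call was lost without sh-NC library 2 (adjusted p = 0.0877) or sh-NC library 3 (0.0688), and over the fits with 1 library left out the adjusted p ran from 0.00734 to 0.0877.

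BID (ENSG00000015475, chromosome 22, 17734138 to 17774770, - strand), whose protein is cut by caspase-8 and links the death receptors to the mitochondrion, had 249.5, 235 and 307 normalized counts in sh-NC and 217, 211 and 202 in sh-KLF5. The sh-KLF5 libraries were the lower ones, and the log2 fold change of -0.32 (95% interval -0.65 to 0.01) had an adjusted p of 0.207. It was -0.34 without sh-KLF5 library 1. BAD (ENSG00000002330, chromosome 11, 64269830 to 64284704, - strand), whose protein is inactivated by phosphorylation under survival signals, had 236, 241 and 303 normalized counts in sh-NC and 259, 239.7 and 261 in sh-KLF5. The groups overlapped, and the log2 fold change was -0.03 (-0.35 to 0.29), or -0.05 without sh-KLF5 library 1. The gene GPR137 covers 23.7% of the exonic bases of BAD on the opposite strand and had 864 to 1147 reads, so the count of BAD depends on whether strand was used in the counting.

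**Figure D3:**
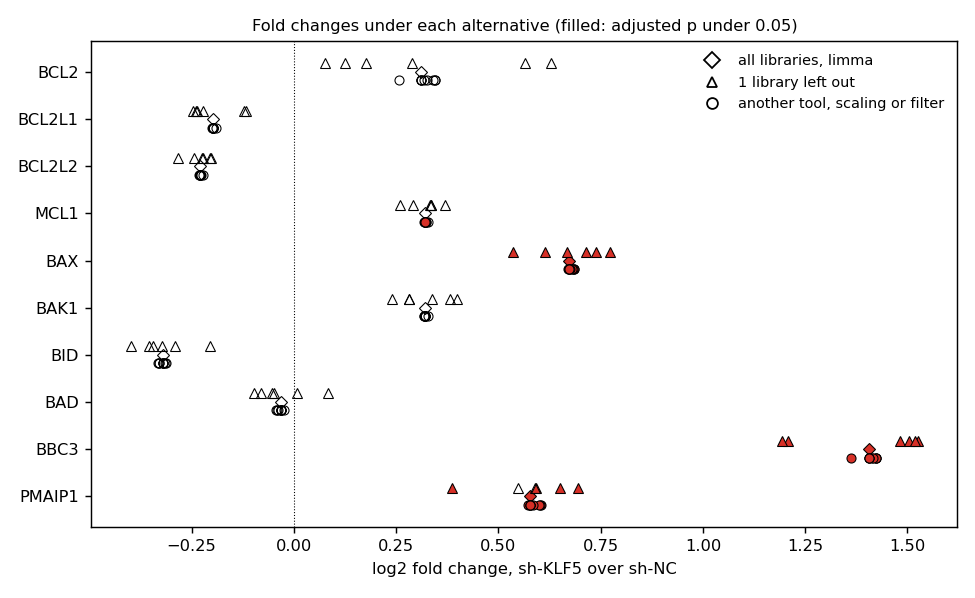
Log2 fold changes of the 10 members with all libraries (diamonds), with 1 library left out (triangles) and with another tool, scaling, pseudocount, filter or the replicate block (circles), filled where the adjusted p was under 0.05. BBC3 and BAX are filled throughout, PMAIP1 is open in 2 fits with a control library left out (1 of them lies under a filled triangle at 0.59), and MCL1 is filled in 2 of the fits with all libraries.

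The sh-KLF5 libraries did not have the same order in all members. MCL1, BAK1 and PMAIP1 were highest in sh-KLF5 library 1, whereas BAX and BBC3 were highest in library 2. KLF5 itself was highest in library 1 among the sh-KLF5 libraries.

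On a scale per length, MCL1 was the most abundant member in both groups, at 63.1 ± 1.91 RPKM in control libraries and 79.4 ± 7.49 after silencing (SD, n = 3). In sh-NC, BCL2L1 followed with 21.6 ± 1.67 RPKM. BAX (15.5 ± 1.10 RPKM), PMAIP1 (15.1 ± 0.473) and BAK1 (13.96 ± 1.10) then came in an order within which neighbours overlapped between libraries. BAD (9.22 ± 1.17 RPKM), BCL2L2 (6.83 ± 0.229), BID (3.59 ± 0.455), BBC3 (1.51 ± 0.323) and BCL2 (0.0822 ± 0.0284) followed, each separated from the next in all libraries. BBC3, with the largest change, was thus the second lowest member in the control cells.

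In sh-KLF5 the order was different in the middle. BAX (25.1 ± 4.97 RPKM) and PMAIP1 (23.1 ± 5.82) stood above BCL2L1 (19.0 ± 1.77) by mean, and the libraries of PMAIP1 and BCL2L1 overlapped. BBC3, at 4.09 ± 1.21 RPKM, stood above BID (2.88 ± 0.172). The level of BCL2L1 depends on the counting: if reads on the bases shared with ABALON had not been counted, its level per remaining base would be 37.9 RPKM in sh-NC and 33.3 in sh-KLF5, above BAX and PMAIP1 in both groups.

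**Figure D4:**
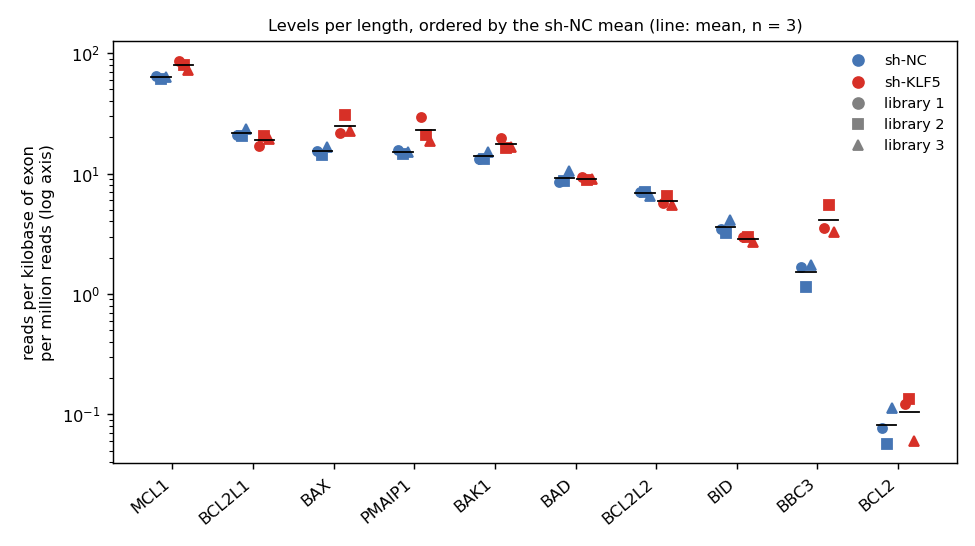
Levels of the 10 members in RPKM (log axis), ordered by the sh-NC mean, with each library as a point and the group mean as a line (n = 3). MCL1 is the highest member, at 63.1 in sh-NC and 79.4 in sh-KLF5, and BCL2 the lowest, near 0.1 in both groups.

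The transcript levels were also summed by role in each library, as a description with no test. Per library the anti-apoptotic sum came to 93.1, 88.5 and 93.3 RPKM in sh-NC and 109.6, 106.9 and 96.7 in sh-KLF5. The share of MCL1 in this sum was 68.8% ± 1.12 for control libraries and 76.0% ± 2.74 for silenced ones (SD, n = 3). The effector sum came to 28.8, 27.7 and 31.8 RPKM in sh-NC and 41.3, 47.2 and 39.2 in sh-KLF5. The BH3-only sum came to 29.1, 27.7 and 31.5 RPKM in sh-NC and 45.5, 38.2 and 33.6 in sh-KLF5. All 3 sums were thus higher in every sh-KLF5 library, and relative to the sh-NC means the pro-apoptotic sums differed by more than the anti-apoptotic sum. Within the BH3-only sum PMAIP1 had the highest level, at 15.1 ± 0.473 RPKM in sh-NC and 23.1 ± 5.82 in sh-KLF5. BBC3 had 1.51 ± 0.323 and 4.09 ± 1.21, and the means of BID and BAD were lower in sh-KLF5. The anti-apoptotic sum divided by the sum of effectors and BH3-only members gave 1.56 ± 0.0744 for control libraries and 1.28 ± 0.0403 for silenced ones. BAX divided by BCL2L1 gave 0.714 ± 0.0168 and 1.31 ± 0.167. In these ratios the groups did not overlap, whereas BAX divided by BAK1 overlapped, with 1.11 ± 0.0447 and 1.45 ± 0.389. All these sums and ratios use every exonic base of a gene, including bases shared with other genes. If reads on shared bases had not been counted, BCL2L1 would stand at 37.9 RPKM in sh-NC and 33.3 in sh-KLF5. BCL2L2 would stand at 9.03 and 7.75, and BAD at 12.1 and 11.8. The sums, the share of MCL1 and the ratios would then differ. Whether the anti-apoptotic sum would still be higher in every sh-KLF5 library was not calculated. Transcript levels do not give protein levels, and MCL1, NOXA and BAD are known to be controlled after transcription.

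Of 13 other listed BCL2 family genes, 9 were tested, of which 1 rose and 0 fell, with a median log2 fold change of -0.04. Among all tested genes, 6.04% were higher and 6.85% lower. The gene that rose was BCL2L10, an anti-apoptotic member, with 27, 24 and 11 reads in sh-NC and 47, 67 and 42 in sh-KLF5 (log2 fold change 1.36, adjusted p = 0.0139). Its call was lost without sh-NC library 3 (adjusted p = 0.0676) or sh-KLF5 library 2 (0.0828), the highest among the fits with 1 library left out. BCL2L11, the gene of the BH3-only protein BIM, had 534, 430 and 453 normalized counts in sh-NC and 452, 441 and 365 in sh-KLF5, which overlapped. BIK and BMF never exceeded 34 reads, and BCL2A1, HRK, BCL2L14 and BCL2L15 were too low to be tested.

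Of 16 genes for caspases and mitochondrial release, 1 rose and 1 fell, with a median log2 fold change of -0.03. These counts were near the shares over all tested genes, 6.04% higher and 6.85% lower. ENDOG, a mitochondrial nuclease, rose by 0.64 on the log2 scale (adjusted p = 0.00766), a call that was lost without sh-NC library 2 (adjusted p = 0.0702). CASP2, an initiator caspase, fell by 0.44 on the log2 scale (adjusted p = 0.0149), and was lost in 4 of the 6 fits with 1 library left out (without sh-NC library 1, 2 or 3 or sh-KLF5 library 2, adjusted p up to 0.0901). APAF1 and CYCS, whose products form the apoptosome, had overlapping groups and log2 fold changes of 0.14 and -0.13. CASP9, the caspase of the apoptosome, had 215, 235.5 and 213 normalized counts in sh-NC and 151, 164 and 169 in sh-KLF5. Its groups did not overlap, and the log2 fold change of -0.45 (95% interval -0.78 to -0.12) had an adjusted p of 0.0689. Of the 6 tested genes for inhibitor of apoptosis proteins, none passed. XIAP, BIRC2 and BIRC3 had sh-KLF5 libraries above all sh-NC libraries, with log2 fold changes of 0.23, 0.27 and 0.39 and adjusted p-values from 0.0722 to 0.241. BIRC5, BIRC6 and NAIP had overlapping groups, with log2 fold changes of -0.37 (adjusted p = 0.0936), -0.17 and 0.92. With no filter, with the replicate block or without sh-KLF5 library 3, BIRC5 was called lower.

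Genes of the death receptor pathway were read as the other route into apoptosis. Of 10 tested genes 4 rose and 0 fell, with a median log2 fold change of 0.38. Over all tested genes 6.04% were higher and 6.85% lower. FAS, the receptor of FAS ligand, had 430, 426 and 385 normalized counts in sh-NC and 972, 731 and 645 in sh-KLF5 (log2 fold change 0.90, adjusted p = 0.000563). TNFRSF10B, the TRAIL receptor DR5, had 1978, 1805 and 1785 in sh-NC and 3110, 3182 and 2742 in sh-KLF5 (0.70, adjusted p = 0.000481). For both genes every sh-KLF5 library lay above every sh-NC library. TNFRSF10D, a decoy receptor of TRAIL that gives no death signal, rose as well (0.84, adjusted p = 0.00105), as did the adaptor TRADD (0.61, adjusted p = 0.00518). These 4 calls stayed with each library left out in turn, and without sh-KLF5 library 1 the list had 6 genes that rose. With DESeq2 5 rose and 1 fell, and with the replicate block 6 rose and 0 fell. These settings also called more genes over the whole table. RIPK1 and CFLAR had log2 fold changes of -0.34 and -0.14 that did not pass.

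BBC3, PMAIP1, BAX, FAS and TNFRSF10B are known to respond to DNA damage, so 2 more lists were read beside them. One held 10 further genes, and the other 12 regulators of BH3-only genes and of MCL1 turnover. The 10 genes were listed as targets of the transcription factor p53. They are also known to be induced by DNA damage, and are called damage-response genes here. Of the 10 damage-response genes 5 rose and 1 fell, with a median log2 fold change of 0.60. The shares over all tested genes were 6.04% higher and 6.85% lower. CDKN1A, the gene of the cell cycle inhibitor p21, had 1759, 1321 and 1532 normalized counts in sh-NC and 6529, 5829 and 4022 in sh-KLF5 (log2 fold change 1.81, adjusted p = 1.2e-06). All 3 sh-KLF5 libraries lay far above the control libraries. SESN1, a sestrin, rose by 1.02, ZMAT3, an RNA-binding protein, by 0.86, PLK3, a kinase, by 0.90 and AEN, a nuclease, by 0.51 on the log2 scale. GDF15, a secreted factor, was the gene that fell (log2 fold change -1.24, adjusted p = 0.034), with 10.03 to 46.6 normalized counts in all libraries. Without sh-NC library 2 the calls of PLK3 (adjusted p = 0.0518), AEN (0.0662) and GDF15 (0.0825) were lost, which left 3 genes that rose and 0 that fell, and GDF15 was also lost without sh-NC library 1 or 3 or sh-KLF5 library 2 or 3 (adjusted p up to 0.179). Without sh-KLF5 library 1, 5 rose and 1 fell. MDM2 and RRM2B were among the 4 genes that did not pass, with log2 fold changes of 0.32 and 0.28.

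Of the 12 regulators, 0 rose and 1 fell, beside 6.04% higher and 6.85% lower among all tested genes. Without sh-KLF5 library 1, 2 rose and 2 fell. That fit also called more of all tested genes, 1272 higher and 1514 lower, against 955 and 1083 with all libraries. E2F1, a transcription factor of the cell cycle that also acts on BH3-only genes, had 1350, 1445 and 1568 normalized counts in sh-NC and 899, 959 and 1064 in sh-KLF5 (log2 fold change -0.58, adjusted p = 0.00306). TP73, a transcription factor that can induce BH3-only genes, had 30.5 to 34.0 normalized counts in sh-NC and 13.3 to 20.4 in sh-KLF5, without passing (adjusted p = 0.088). HUWE1, FBXW7, BTRC and USP9X, whose products add ubiquitin to MCL1 or remove it, did not pass, with log2 fold changes from -0.26 to 0.08. The part of any of these genes in the values of BBC3, BAX and PMAIP1 was not tested.

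**Figure D5:**
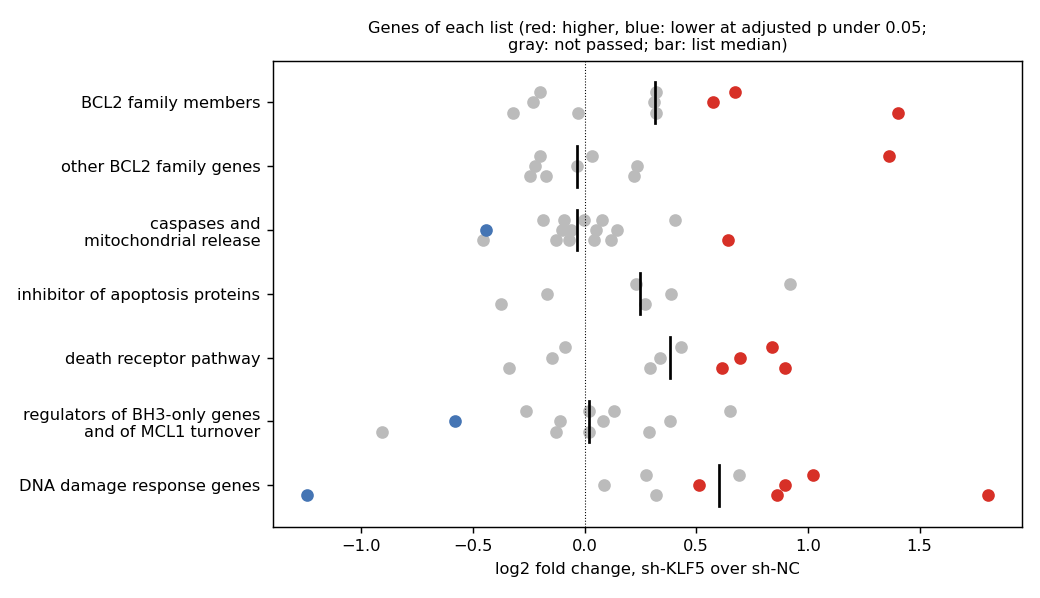
Log2 fold changes (sh-KLF5 over sh-NC) of the tested genes of each list, red where higher and blue where lower at an adjusted p under 0.05, with the list median as a bar. The medians of the death receptor list (0.38) and of the DNA damage response list (p53 target genes, 0.60) lie to the right of 0. Those of the caspase list (-0.03) and of the other BCL2 family genes (-0.04) lie near 0.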

How the data were processed

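RNA-seq libraries of SKOV3 cells (sh-KLF5 and sh-NC, 3 each, grouped by the sample labels) were analysed. The authors deposited 1 table with a normalized signal per gene and library, namely reads per gene divided by 1 size factor. The submitters' processing notes list hg38, HISAT2 2.0.5, featureCounts 1.5.0-p3 and DESeq2 1.20.0, without strand or overlap settings. The deposited log2 fold changes and p-values of the authors, and the authors' group means, were not used. Gene lengths were taken from the table.

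The smallest nonzero value of a library was taken as 1 read, which gave whole reads for 100% of values (tolerance 1e-06). The totals per library were 15852319 to 17543896 reads, and 3 reads, the limit that a count of 0 allows, equal 0.171 to 0.189 CPM; this covers counting error only. All 29185 genes had GENCODE release 29 coordinates, which gave the exon overlaps.

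limma 3.58.1 (R 4.3.3; trend, robust) compared log2(normalized count + 1) over the 15803 genes passing filterByExpr of edgeR 4.0.16 (minimum count 10), with Benjamini-Hochberg adjustment over all of them, as the fixed design foresaw for normalized values. Fold changes are on this scale, which understates those of low genes. An exact two-sided permutation test of 3 libraries against 3 cannot go below p = 0.1, so none is given per gene. RPKM was calculated from recovered reads. The scripts were tested on simulated data.

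Alternatives were edgeR and DESeq2 1.42.0 on recovered reads, other scalings, pseudocounts and filters, a replicate block and leaving out each library. The members, lists and alternatives were chosen with earlier results of these data known. The rule for named genes covers the 10 members, KLF5, list genes past the threshold and genes sharing exons with a member. Other list genes, and the markers, were named after their values were seen. ADAMTSL4-AS1 shares 0.0458% of the exonic bases of MCL1, with at most 24 reads per library. GGNBP1 shares 4.11% of those of BAK1, with at most 3 reads. DIABLO has 2 entries in the table, and the one with more reads was used. BIRC7, FASLG, WT1 and CD3E were listed but were not found by name among the 29185 genes, so they have no values here. Python 3.11.15 and matplotlib 3.10.9 drew the figures. Some list genes are not reported here by name.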

Additional observations from a re-analysis of the deposited data

How the results depend on the processing

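At the adjusted threshold alone, BBC3 and BAX were called higher and KLF5 lower with every other tool, scaling, pseudocount, filter, block and left-out library, and PMAIP1 higher in all but 2 of these (log2 fold changes 0.55 and 0.59 without sh-NC replicate 2 and 3). Leaving out 1 library gave log2 fold changes from 1.19 to 1.53 for BBC3, from 0.53 to 0.77 for BAX, from 0.39 to 0.69 for PMAIP1 and from 0.26 to 0.37 for MCL1, and from -0.10 to 0.08 for BAD, which turned positive without sh-NC replicate 3 (0.084) and without sh-KLF5 replicate 2 (0.0075). MCL1 passed with DESeq2 (log2 fold change 0.32, adjusted p = 0.0353). Libraries of the same number deviated together only weakly (correlations of 0.062, 0.023 and 0.059), so the numbers were not taken as pairs. With the replicate block 1292 genes were called higher and 1383 lower, and MCL1 passed as well (0.32, adjusted p = 0.0477), with no other change among the members. The number of members called higher was 2 or 3 without 1 library, 1 (BBC3) with the fold threshold, which BAX and PMAIP1 did not reach, and 5 with unadjusted p-values, and none was called lower. Against 955 genes higher and 1083 lower in all, the fold threshold gave 301 and 533, unadjusted p-values 2024 and 2110, and leaving out 1 library from 518 to 1272 and from 699 to 1514, with the lowest numbers without sh-NC replicate 2. No scaling moved the median of all genes by over 0.1. The causes were not tested. Depth limits BCL2, with 11 to 26 reads per library.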
